A study of Mus musculus with 24 samples.

Results

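Of 17287 genes tested in mouse ear, 1516 had a Card14 E138A effect that differed between day 5 and 1 month after tamoxifen. These 1516 genes are described here. They were chosen by 1 contrast, the mutant minus wild-type difference at 1 month minus the same difference at day 5, which is called the interaction below. The deposited table held 51912 genes, and a filter on low counts left the 17287. PolyA RNA of whole ears was sequenced from C57BL/6 mice in 24 samples, 6 in each of 4 groups. The groups were wild type (Wt) and CARD14E138A, each taken 5 days and 1 month after tamoxifen, and every group received intraperitoneal tamoxifen daily on 3 days, with time counted from the first injection. The mutant strain, Card14LSL-E138A, expresses the E138A protein from the mouse Card14 locus once tamoxifen has activated CreERT2. The labels used here name neither the promoter that drives CreERT2, nor whether wild-type mice carried it, nor the age of the mice. They do not state that each sample is a different animal. A p-value here therefore rests on the spread among samples within groups, which may be technical. The fit used 1 estimate of that spread per gene for all 4 groups. The series sets an immediate against a chronic effect of the mutation, and the interaction asks which genes answered differently at the 2 times.

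In keratinocytes the scaffold protein CARD14 assembles with BCL10 and MALT1 and passes signals to the kinases that free NF-κB. NF-κB switches on cytokine and chemokine genes and also the genes of its own inhibitors, so that a sustained signal meets feedback. An ear holds epidermis, hair follicles, dermis, cartilage, muscle and fat, and in inflamed skin keratinocytes, fibroblasts, melanocytes and resident leukocytes are all known to change their expression over different spans of time. In RNA of a whole ear, fewer cells of a type and less RNA per cell cannot be told apart, and this holds for every marker described below.

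Libraries differed in depth, Y-linked genes, GC correlation and blood RNA. Total counts lay between 15661515 and 18852963 at day 5 and between 19255028 and 23904976 at 1 month, so depth did not overlap between the times and cannot be told apart from time. At 1 month 4 libraries (wild-type replicate 2 and mutant replicates 1, 2 and 6) had at most 67.6 CPM summed over 4 Y-linked genes, against at least 102 CPM in the other 20. CPM here means counts scaled to a library of 1000000 after TMM scaling. The correlation of a library's gene levels with gene GC content spanned -0.471 to 0.566 at 1 month and -0.404 to 0.057 at day 5. At 1 month it went with the Y-linked level. It was 0.298 to 0.566 in the 4 libraries, 0.153 to 0.328 in those at 102 to 144 CPM, and -0.471 to -0.19 in those at 202 to 267 CPM. Leaving out the 4 libraries and adding the GC correlation to the fit are therefore not independent checks. The haemoglobin gene Hbb-bs lay between 0.119 and 10.6 CPM at day 5 and between 48.6 and 353 CPM at 1 month, in both genotypes, and this too cannot be told apart from time. Mutant replicates 1 and 3 of day 5 held 763 and 900 CPM of the alarmin gene S100a8, against 2050 to 3510 CPM in the other 4. The part of these differences in the results was not tested beyond leaving these libraries out and adding the GC correlation to the fit.

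The interaction was positive for 809 genes (4.68% of those tested) and negative for 707 (4.09%), 8.77% in both directions together, by edgeR's quasi-likelihood test at a Benjamini-Hochberg adjusted p below 0.05. A positive interaction means that mutant minus wild type stood higher at 1 month than at day 5. For comparison, the genotype effect itself was called in 40.9% of genes at day 5 (20.7% higher and 20.2% lower in mutants) and in 47.1% at 1 month (25.5% higher and 21.5% lower). Near the threshold, Adm and Mmrn2 lay just inside, at edgeR adjusted p of 0.04978 and 0.0498, and Ncbp3 and Plekhb1 just outside, at 0.05006 and 0.05039. The counts moved with the libraries and the method. Without the 4 libraries low in Y-linked genes they were 1697 positive and 2933 negative (26.1% of genes tested). With the GC correlation as a covariate they were 1441 and 1386 (16.4%), and with limma voom and quality weights 4037 and 4180 (47.5%). Of the 1516 genes, 1331 were called with the same sign without the 4 libraries, 1515 with the GC covariate, 1470 with voom and 1514 with DESeq2. Without the 2 day 5 mutant libraries low in S100a8 it was 1031, and 0 changed sign in any of these fits. As for class, 919 of the 1516 genes kept their class in that last fit, 1129 without the 4 libraries, 1363 with the GC covariate and 1060 with voom. Of the 565 gained genes 275, 406, 478 and 291 stayed in that class in these 4 fits.

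The 1516 genes fell into 6 classes by which genotype contrasts were called. In 345 genes (2% of those tested) the effect was lost, called at day 5 and not at 1 month, with 92 higher and 253 lower in mutants at day 5. A missed threshold is not an absent effect. In 290 of the 345 the 95% interval of the 1 month effect lay within 1 log2 unit of 0. That bound is near the median day 5 effect of lost genes, 1.206 in those higher and -1.049 in those lower. An interval within it therefore does not show that the effect was absent. In 565 genes (3.27%) the effect was gained, 303 higher and 262 lower in mutants at 1 month. In 377 of these the day 5 interval lay within 1 log2 unit of 0, and the same limit holds. In 185 genes (1.07%) the effect reversed, 157 from lower to higher and 28 from higher to lower. The effect kept its sign and became smaller in 106 genes (0.613%) and larger in 302 (1.75%). In the remaining 13 genes (0.0752%) neither genotype contrast was called. Lost and reversed genes thus lay mostly on the side that was low in mutants at day 5.

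**Figure D1:**
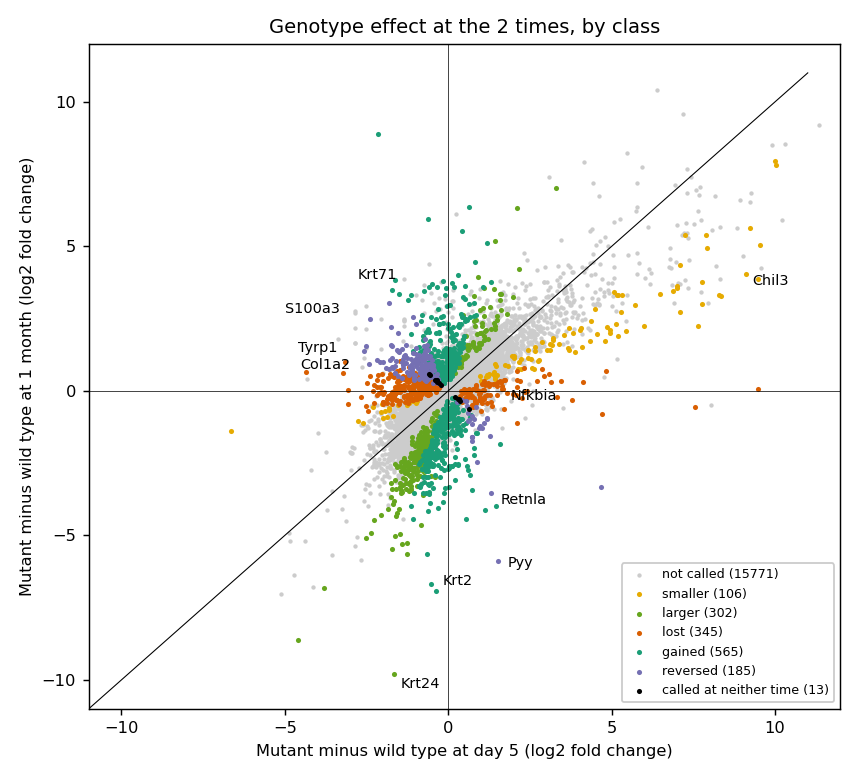
Each point is 1 of the 17287 genes tested, with its mutant minus wild-type log2 fold change at day 5 on the horizontal axis and at 1 month on the vertical axis. Colours mark the classes of the 1516 genes with a called interaction and grey the other 15771. Genes on the diagonal have equal effects at both times, lost genes lie along the horizontal zero line, gained genes along the vertical one, and reversed genes at the upper left and lower right.

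Most of these differences came with a called change in the mutant ears. The interaction equals the change over time in mutants minus that in wild type, so both time contrasts of the same fit were read for each gene. Of the 1516 genes, 1022 were called as changed in mutant ears only, 273 in wild-type ears only, 117 in both and 104 in neither. Here only means that the time contrast of the other genotype missed the threshold, which is not an absent change. Over all genes tested the time contrast was called in 19.4% in mutants (11.2% rose and 8.23% fell) and in 9.09% in wild type (6.28% rose and 2.81% fell). In lost genes that had been lower at day 5, 226 of 253 rose in mutant ears between the times and 0 fell. In reversed genes that went from lower to higher, 151 of 157 rose in mutant ears. The direction follows largely from the choice of these classes, since a positive interaction means that mutants rose relative to wild type. The choice does not set which genotype changed, and wild-type levels fell in 24 of the 253 and 26 of the 157. Genes gained as lower in mutants were split differently, since 135 of 262 fell in mutant ears while 117 rose in wild-type ears. The larger, lower class was alike, with 135 of 233 falling in mutants and 91 rising in wild type.

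**Figure D2:**
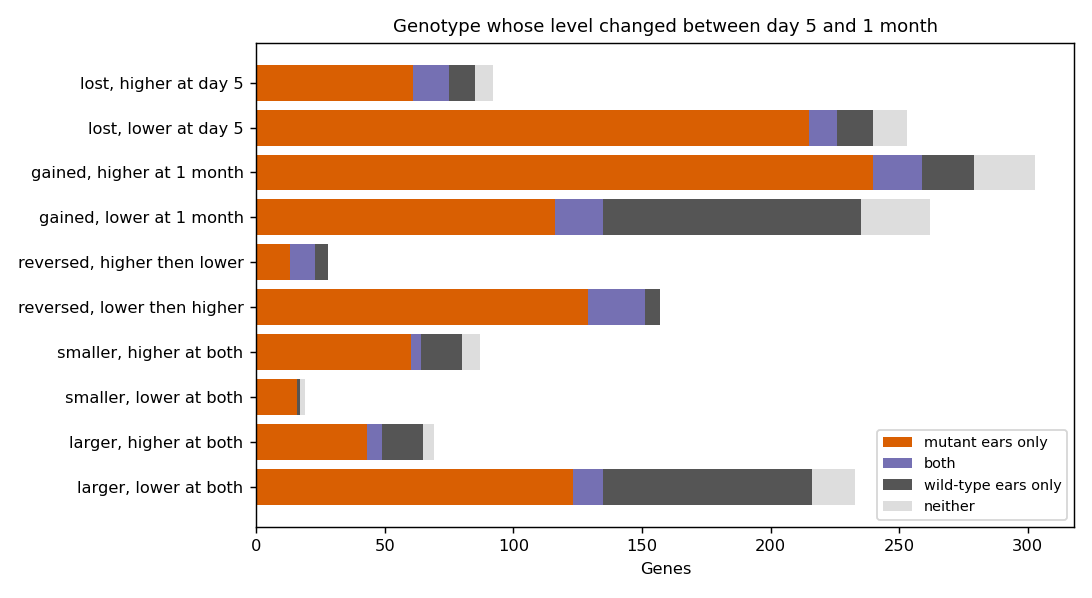
Bars count the genes of each class by the genotype whose level was called as changed between day 5 and 1 month: mutant ears only, both, wild-type ears only, or neither. Mutant ears account for most of the lost and reversed genes that were lower at day 5, whereas among the 262 genes gained as lower 135 fell in mutants and 117 rose in wild type.

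Gene lists of pathways and cell types shifted to different degrees. The median interaction over all genes tested was 0.02. The list medians ran from -2.74 for neutrophil chemoattractants to 3.20 for hair shaft keratins. Melanocyte genes (11 of 12 members called), dermal collagens (19 of 24), glucocorticoid targets (9 of 14), acute phase genes (5 of 8) and γδ T-cell genes (6 of 10) had the highest shares called. No member was called of the lists of cytoplasmic ribosomal proteins (21 tested) or haemoglobin and erythroid genes (6 tested). Without the 4 libraries low in Y-linked genes, however, 18 of the 21 ribosomal protein genes and 2 of the 6 erythroid genes were called negative.

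**Figure D3:**
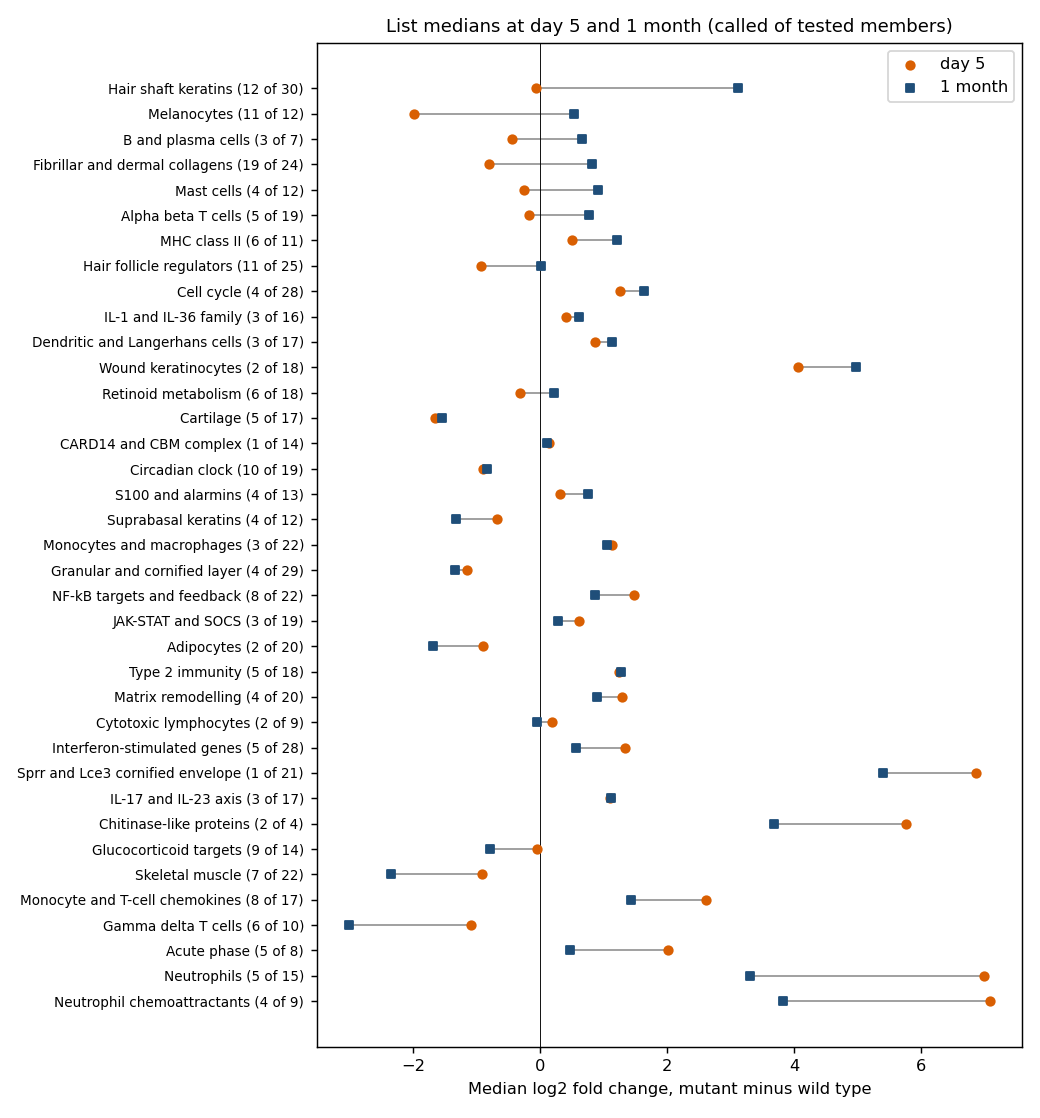
For each described list the circle marks the median mutant minus wild-type log2 fold change at day 5 and the square that at 1 month, and the label gives how many tested members had a called interaction. Melanocyte, collagen, B-cell, mast-cell, αβ T-cell and hair shaft medians, among others, cross from below to above 0, while the medians of chemoattractants, neutrophil markers and acute phase genes move towards 0 and those of muscle and γδ T-cell genes away from it.

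Card14 itself (GRCm38 chromosome 11, 119307768 to 119345375) gained a difference. At day 5 it lay at 34.6, 48.5 and 54.2 CPM (lowest, median and highest of 6 libraries) in wild type and at 35.1, 44.5 and 65.4 CPM in mutants. By 1 month it lay at 32.9, 37.5 and 49.9 CPM in wild type and at 9.93, 13 and 25.3 CPM in mutants. The groups overlapped at day 5 and were apart at 1 month, and the interaction was -1.52 ± 0.28 (SE, log2 units, edgeR adjusted p = 0.000827). Card14 fell over time in mutants by 1.69 ± 0.20, while its wild-type change of -0.17 ± 0.19 was not called (edgeR adjusted p = 0.576). Since E138A is a change in the protein made from this same locus, the level of the RNA does not check the genotype labels. The gene overlaps Sgsh on the other strand, and no source used here says whether counting used strand. Of the other 13 members of a list of the CARD14, BCL10 and MALT1 complex and the kinases below it, 0 were called, and the list median was 0.02.

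The list of NF-κB targets and feedback genes moved towards wild-type levels. Of 22 members 8 had a negative interaction (background 4.09%) and 0 a positive one. In 3 the effect was lost (Nfkbia, Tnip1, Sod2) and in 5 it became smaller (Tnfaip3, Birc3, Icam1, Tnf, Ier3). The median effect of the list was 1.48 at day 5 and 0.87 at 1 month, with a median interaction of -0.40. At day 5 20 of the 22 members were higher in mutants, and at 1 month 15 were. Summed over the list, mutant libraries lay at 1690 to 2300 CPM at day 5 and at 1270 to 1660 CPM at 1 month, and wild-type libraries at 753 to 790 and 757 to 851 CPM. The mutant sums of the 2 times therefore did not overlap each other or wild type. Without the 4 libraries low in Y-linked genes 14 of the 22 members were called negative.

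Nfkbia (chromosome 12, 55489410 to 55492647) encodes IκBα, the inhibitor that holds NF-κB in the cytoplasm and is itself an NF-κB target. It lay at 79.2, 89.2 and 110 CPM in wild type and at 264, 283 and 298 CPM in mutants at day 5. At 1 month the values were 77.2, 114 and 136 CPM in wild type and 103, 130 and 175 CPM in mutants. All mutant libraries were above all wild-type libraries at day 5 and the groups overlapped at 1 month. The genotype effect was 1.62 ± 0.13 at day 5 and 0.30 ± 0.13 at 1 month, and the interaction -1.32 ± 0.19 (edgeR adjusted p = 5.65e-05). Tnfaip3 (chromosome 10, 19000910 to 19015657), the gene of A20, a ubiquitin-editing enzyme that shuts off NF-κB signalling, lay at 13, 16.8 and 19.7 CPM in wild type and 83.5, 97.6 and 112 CPM in mutants at day 5. By 1 month wild-type ears held 18.3, 19.8 and 26.9 CPM and mutant ears 29.7, 35.5 and 43.9 CPM. The groups stayed apart at both times, and the effect shrank from 2.58 ± 0.12 to 0.77 ± 0.12, an interaction of -1.80 ± 0.17 (edgeR adjusted p = 2.48e-07). Tnip1, which encodes an A20-binding inhibitor, went from 1.06 ± 0.16 to 0.04 ± 0.15. Sod2, the mitochondrial superoxide dismutase gene, went from 1.29 ± 0.12 to 0.25 ± 0.11.

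Promoters of 3 genes from the NF-κB and chemoattractant lists with negative interactions are shown. The 200 bases before the RefSeq start of Nfkbia and of the chemokine genes Cxcl1 and Cxcl2 are given 5′ to 3′ on the gene's strand, from GRCm38.p6, with capitals marking matches to the NF-κB motif (GGGA, any 2 bases, then TTCC) on either strand. They are chr12:55492648-55492847 (minus), chr5:90891045-90891244 (plus) and chr5:90903699-90903898 (plus).
Nfkbia: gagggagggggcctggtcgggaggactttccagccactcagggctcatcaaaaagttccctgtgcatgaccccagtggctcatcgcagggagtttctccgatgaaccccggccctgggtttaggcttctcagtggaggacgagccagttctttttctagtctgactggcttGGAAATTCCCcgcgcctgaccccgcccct
Cxcl1: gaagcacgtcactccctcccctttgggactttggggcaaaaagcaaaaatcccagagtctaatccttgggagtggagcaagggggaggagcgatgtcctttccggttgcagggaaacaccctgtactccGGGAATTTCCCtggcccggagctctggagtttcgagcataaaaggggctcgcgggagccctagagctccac
Cxcl2: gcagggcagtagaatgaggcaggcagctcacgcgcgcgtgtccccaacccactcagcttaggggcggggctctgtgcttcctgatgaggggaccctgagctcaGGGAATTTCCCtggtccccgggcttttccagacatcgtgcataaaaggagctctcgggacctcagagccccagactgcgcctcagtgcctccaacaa
In Cxcl1 and Cxcl2 a match on each strand overlaps the other, so the run in capitals is 1 base longer than the motif. In the 250 bases before the start, 3 of 19 NF-κB list members with a RefSeq promoter held the motif (Nfkbia, Nfkb2 and Cyld). Among the 8 called members it was 1, Nfkbia. Of 6 neutrophil chemoattractants 4 did (Cxcl1, Cxcl2, Cxcl3 and Il6), 3 of them among the 4 called, against 1.44% of 12299 genes. A match describes the letters of the window and does not show binding.

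Neutrophil chemoattractant genes had negative interactions as well. Of 9 neutrophil chemoattractants and growth factors 4 had a negative interaction (Cxcl1, Cxcl2, Cxcl3, Csf2), each called higher at both times and smaller at 1 month. The list median was 7.09 at day 5 and 3.82 at 1 month. Cxcl1 (chromosome 5, 90891241 to 90893115), whose product draws neutrophils through CXCR2, lay at 0.121, 0.587 and 0.801 CPM in wild type and at 42.2, 60.8 and 109 CPM in mutants at day 5. The 1 month levels were 0.368, 0.664 and 1.07 CPM in wild type and 9.06, 12.4 and 21.4 CPM in mutants. Mutants were above wild type in every library at both times, and mutant libraries of the 2 times did not overlap. The interaction was -2.74 ± 0.49 (edgeR adjusted p = 0.000632). Cxcl2 moved in the other genotype: its wild-type level was called as higher at 1 month than at day 5, and its mutant change of -0.57 ± 0.68 was not called. The interaction of Cxcl2 was -4.95 ± 1.36 (edgeR adjusted p = 0.0231). The wild-type libraries of 1 month held 0.0855, 0.156, 0.316, 0.398, 3.98 and 10.9 CPM of Cxcl2, so 1 or 2 libraries carried its level, and without the highest (replicate 4) the interaction was -3.56 (edgeR adjusted p = 0.07). Cxcl3 had a mean of 0.0101 CPM in wild-type ears at day 5, too few counts for a fold change.

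Chemokines for monocytes and T cells followed, with 8 of 17 members negative and 0 positive. In 7 the effect became smaller (Ccl2, Ccl7, Ccl9, Ccl6, Ccl17, Ccl22, Cxcl10), and Ccl27a gained a lower level in mutants. Ccl17 (chromosome 8, 94810453 to 94812036), a ligand of CCR4, lay at 0.308, 0.621 and 0.810 CPM in wild type and at 32.2, 40.1 and 42.6 CPM in mutants at day 5. By 1 month it was at 0.370, 1.08 and 2.74 CPM in wild type and at 2.72, 6.03 and 10.4 CPM in mutants. The groups were far apart at day 5 and touched at 1 month, where the lowest mutant library lay within the wild-type range. The interaction was -3.72 ± 0.48 (edgeR adjusted p = 2.34e-05). Ccl20 (chromosome 1, 83116766 to 83119167), which attracts cells bearing CCR6, lay at 59.0, 64.9 and 75.1 CPM in mutants at day 5 and at 1.80, 4.11 and 9.26 CPM at 1 month. Its wild-type libraries held at most 0.868 CPM at both times, and 1 of them was at 0 at 1 month. The interaction of Ccl20 was -3.38 ± 0.65 (edgeR adjusted p = 0.00140). The monocyte attractants Ccl2 and Ccl7 shrank from 4.87 ± 0.34 to 2.22 ± 0.33 and from 4.55 ± 0.30 to 1.98 ± 0.28.

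Members of the cytokine axes were called in part. Negative interactions were found in 3 of 17 genes of the IL-17 and IL-23 axis, among them Ccl20 and Il22ra2. Il22ra2, the gene of a soluble receptor that neutralises IL-22, reversed from 0.98 ± 0.33 to -1.22 ± 0.34. The remaining 14 members, Il17a, Il17f and Il22 among them, were not called. Of the 17 interactions 15 were below 0, with a median of -0.92, and 8 members fell over time in mutants while 2 rose. The median genotype effect of the list, however, was 1.10 at day 5 and 1.12 at 1 month. At each time 13 members were called higher in mutants and 2 lower. In wild-type ears 2 members had no count at either time, too few for a fold change. In the IL-1 and IL-36 list 3 of 16 members were negative, Il1b, Il1r1 and Il1f10, and 0 positive. The list as a whole did not fall, since 10 of the 16 interactions were above 0, with a median of 0.24. Its median effect was 0.41 at day 5 and 0.61 at 1 month. Without the 4 libraries low in Y-linked genes 3 members were positive and 4 negative. Il1f10, which encodes IL-38, an antagonist of the family, gained a lower level, from -0.69 ± 0.29 to -2.59 ± 0.33 (interaction -1.90 ± 0.44, edgeR adjusted p = 0.00660). Il1b had an edgeR adjusted p of 0.0487 and was not called in 17 of the 24 fits that left out 1 library.

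Negative interactions were also found among acute phase genes. Of 8 members 5 were negative and 0 positive (2 lost, 2 smaller, 1 gained as lower), and the median effect went from 2.02 to 0.47. Saa1 (chromosome 7, 46740497 to 46742980), a serum amyloid gene, lay at 0.0578, 0.0635 and 0.175 CPM in wild type and at 7.48, 22.8 and 32.2 CPM in mutants at day 5. After 1 month it stood at 0.0782, 0.260 and 0.487 CPM in wild type and 0.785, 1.85 and 4.73 CPM in mutants. Mutants exceeded wild type in every library at both times, and the interaction was -4.78 ± 0.80 (edgeR adjusted p = 0.000340). Hp (chromosome 8, 109575128 to 109579172), the gene of the haemoglobin-binding protein haptoglobin, lay at 57.5, 82.7 and 144 CPM in wild type and 279, 460 and 575 CPM in mutants at day 5. The 1 month values were 115, 221 and 393 CPM and 109, 194 and 343 CPM. The 2 genotypes overlapped fully at 1 month, and Hp rose over time in wild type (1.42 ± 0.30) and fell in mutants (-1.08 ± 0.30). Its effect was lost, from 2.26 ± 0.31 to -0.24 ± 0.30, an interaction of -2.50 ± 0.42 (edgeR adjusted p = 0.000409). Ptx3, the gene of a soluble pattern receptor, was lost as well (2.94 ± 0.40 to 0.52 ± 0.39). Orm1, the gene of the plasma carrier orosomucoid, gained a lower level in mutants (0.27 ± 0.16 to -1.31 ± 0.17).

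Signalling genes that answer cytokines and interferons were called in part. Of 28 interferon-stimulated genes 5 were negative (among them Irf9, Stat2, Gbp2 and Irf1), although 26 of the 28 interactions were below 0 and the median was -0.76. Without the 4 libraries low in Y-linked genes 11 were called, and 9 with the GC covariate. At day 5 25 of the 28 were higher in mutants and at 1 month 11 were. Of 19 JAK-STAT and SOCS genes 3 were negative, and 9 without the 4 libraries. Socs3, a feedback inhibitor of cytokine receptors, shrank from 3.01 ± 0.22 to 1.42 ± 0.21. Cish, another such inhibitor, lost its effect (1.18 ± 0.19 to -0.41 ± 0.19), and Il6ra, the IL-6 receptor gene, gained a lower level (-0.22 ± 0.11 to -1.38 ± 0.11). Ifngr1 (chromosome 10, 19591949 to 19610229), a chain of the interferon-γ receptor, was among the clearest lost genes. It lay at 80.7, 93.5 and 114 CPM in wild type and at 182, 210 and 219 CPM in mutants at day 5, then at a median of 158 CPM (highest 206) and at 124, 148 and 163 CPM at 1 month. Wild-type libraries rose and mutant libraries fell until they overlapped, with an interaction of -1.28 ± 0.15 (edgeR adjusted p = 4.13e-06).

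**Figure D4:**
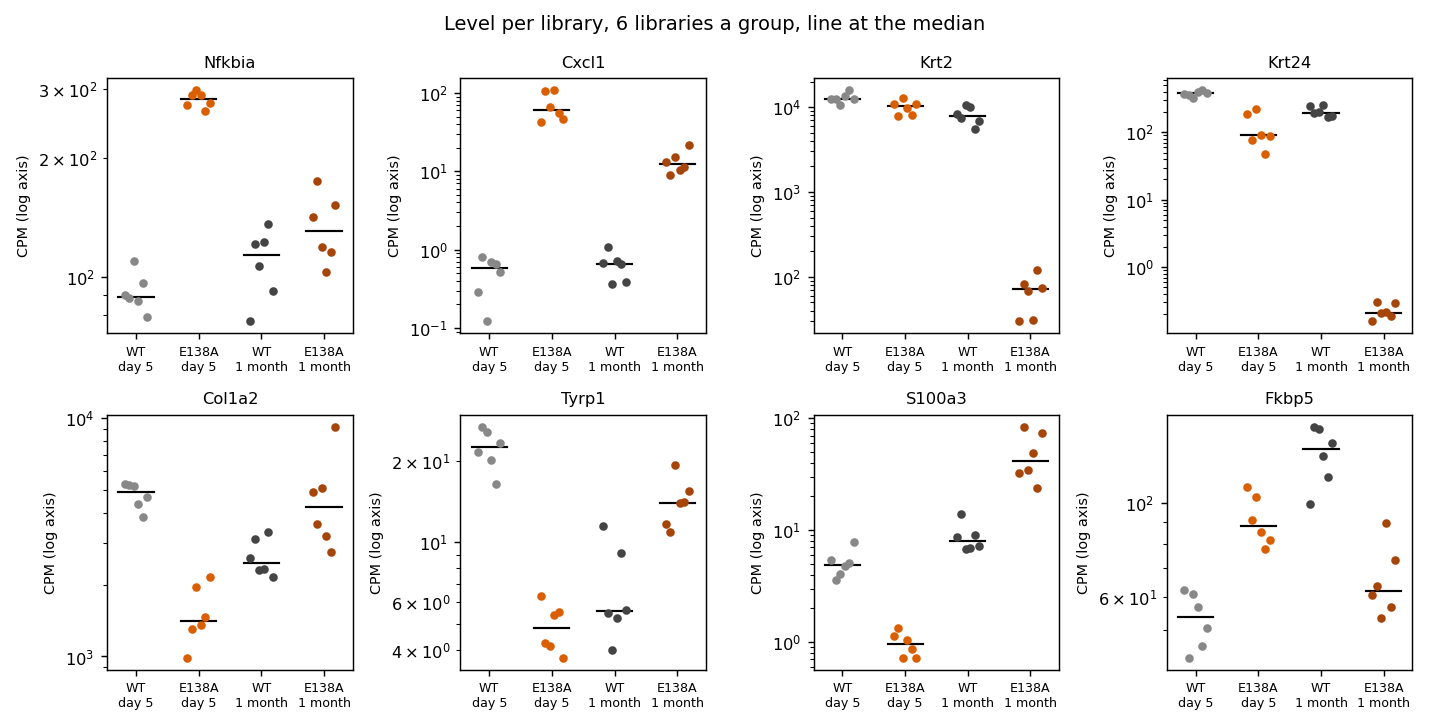
Each panel gives 1 gene, with 1 point per library on a log CPM axis, 6 libraries in each group, and a line at the group median. Nfkbia and Cxcl1 shrink towards wild type, Krt2 and Krt24 drop in mutants at 1 month, Col1a2, Tyrp1 and S100a3 go from below to above wild type, and Fkbp5 goes from above to below.

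Some neutrophil markers stayed high in mutants, by less at 1 month. Of 15 neutrophil markers 5 were negative (Mmp8, S100a8, S100a9, Retnlg, Fpr2) and 0 positive, with a median effect of 6.99 at day 5 and 3.30 at 1 month. Leaving out the 4 libraries low in Y-linked genes gave 9, and leaving out the 2 day 5 mutant libraries low in S100a8 gave 10. The list of S100 proteins and alarmins held 1 positive (S100a3) and 3 negative (S100a8, S100a9, S100b) of 13, and its median effect was 0.31 at day 5 and 0.76 at 1 month. S100a8 (chromosome 3, 90668978 to 90670035), a subunit gene of calprotectin that both neutrophils and activated keratinocytes express, lay at 1.05, 1.80 and 3.30 CPM in wild type and at 763, 2180 and 3510 CPM in mutants at day 5. Levels at 1 month were 3.93, 8.28 and 13.8 CPM in wild type and 1590, 1800 and 3190 CPM in mutants. Mutant libraries of the 2 times overlapped and wild-type libraries did not. The interaction of -2.05 ± 0.50 (edgeR adjusted p = 0.00993) thus went with a wild-type rise of 2.10 ± 0.38, while the mutant change of 0.04 ± 0.33 was not called. Retnlg, a resistin-like gene of neutrophils, fell in mutants instead (mutant change -2.98 ± 0.55), with an interaction of -4.38 ± 1.08.

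The called macrophage, type 2 and chitinase-like genes were all negative. Of 22 monocyte and macrophage markers 3 were negative (Ly6c2, Cd163, Lyve1), and 19 were not called. That is 13.6% called, against 8.77% of all genes tested. The median effect of the list hardly differed between the times, at 1.13 and 1.05. With the GC covariate 1 member was positive and 5 negative. Lyve1, a hyaluronan receptor of resident macrophages and lymphatic vessels, lost its effect, from 1.04 ± 0.19 to -0.41 ± 0.19. The calls of Ly6c2 and Cd163 were lost in 18 and 19 of the 24 fits that left out 1 library. Of 18 type 2 genes 5 were negative, the eosinophil attractant gene Ccl11 (lost, 1.49 ± 0.23 to -0.14 ± 0.22), Il4ra, Ccl17, Ccl22 and Retnla. The median effect of this list was 1.24 at day 5 and 1.27 at 1 month, although 13 of its 18 interactions were below 0. Of 4 chitinase-like genes 2 were negative, Chil1 and Chil3. Chil3 (chromosome 3, 106147554 to 106167564), which encodes Ym1 of activated macrophages and neutrophils, lay at 0, 0.117 and 0.247 CPM in wild type and 13.5, 71.1 and 116 CPM in mutants at day 5. Libraries of 1 month held 0.117, 0.285 and 0.581 CPM in wild type and 3.02, 5.26 and 7.10 CPM in mutants. The groups were apart at both times and the mutant libraries of the 2 times did not overlap, with an interaction of -5.06 ± 0.93 (edgeR adjusted p = 0.000913).

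The Serpina3 cluster on chromosome 12 (104112724 to 104414329) moved in 1 direction. It encodes serine protease inhibitors related to antichymotrypsin, and 7 of its 9 tested genes had a negative interaction against 4.09% of all genes. In 3 the effect was lost (Serpina3g, Serpina3i, Serpina3m), in 2 a lower level was gained (Serpina3c and Serpina3k) and in 2 the effect became smaller (Serpina3f and Serpina3n). These copies are near-identical, so reads may be shared among them, and Serpina3m also overlaps Serpina3k in the annotation. Serpina3m (chromosome 12, 104338486 to 104394257) lay at 0.392, 0.690 and 0.991 CPM in wild type and at 4.98, 7.80 and 10 CPM in mutants at day 5. The later libraries held 1.75, 1.82 and 2.30 CPM and 1.66, 2.17 and 3.31 CPM. The genotypes were apart at day 5 and overlapped at 1 month (interaction -3.10 ± 0.31, edgeR adjusted p = 7.33e-07). Serpina3n went from 3.21 ± 0.21 to 1.75 ± 0.19. Serpina3h, a further gene of the family, gained a lower level at 1 month (-0.22 ± 0.21 to -2.67 ± 0.23). The cluster, and Serpina3c, Serpina3f, Serpina3g and Serpina3n in it, were chosen after their values were seen.

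Positive interactions prevailed among dermal matrix genes. The list of collagens and dermal matrix genes had 19 of 24 members with a positive interaction (background 4.68%) and 0 negative. In 8 the effect reversed from lower to higher (Col1a1, Col1a2, Col3a1, Col5a1, Col5a2, Col6a1, Col6a3, Col14a1), in 6 a lower level was lost (Col5a3, Col6a6, Col7a1, Col16a1, Eln, Sparc) and in 5 a higher level was gained (Col6a2, Col12a1, Col15a1, Fbn1, Lum). The median effect went from -0.81 to 0.82. Summed over the list, wild-type libraries lay at 20000, 24800 and 26800 CPM and mutant libraries at 8880, 11300 and 15400 CPM at day 5. At 1 month the sums were 14400, 15600 and 22300 CPM in wild type and 18700, 25200 and 47000 CPM in mutants. Mutant ears thus lay below all wild-type ears at day 5, and at 1 month 3 of the 6 mutant libraries lay within the wild-type range and 3 above it. In mutants 19 of the 24 genes rose over time and 0 fell, and in wild type 4 fell and 1 rose.

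Col1a2 (chromosome 6, 4504814 to 4541544), an α chain of type I collagen, the main fibre of dermis, lay at 3860, 4920 and 5300 CPM in wild type and at 984, 1410 and 2160 CPM in mutants at day 5. In 1 month ears it lay at 2150, 2460 and 3340 CPM in wild type and at 2740, 4260 and 9200 CPM in mutants. The groups were apart at day 5 and overlapped in part at 1 month, where mutant replicate 6 stood highest. The effect went from -1.63 ± 0.24 to 0.86 ± 0.24, an interaction of 2.49 ± 0.34 (edgeR adjusted p = 3.53e-05), with a wild-type change of -0.85 ± 0.24 and a mutant change of 1.64 ± 0.24. Col12a1 (chromosome 9, 79598991 to 79718831), a collagen that sits on fibril surfaces in tissue under tension, lay at 84.8, 119 and 132 CPM in wild type and 69.4, 89.0 and 131 CPM in mutants at day 5. At 1 month it lay at 63.9, 71.6 and 99.9 CPM in wild type and 258, 340 and 510 CPM in mutants. It overlapped at day 5 and was apart at 1 month, with an interaction of 2.58 ± 0.24 (edgeR adjusted p = 2.48e-07). Col14a1, a relative of Col12a1, reversed from -0.98 ± 0.17 to 1.27 ± 0.17 with both pairs of groups apart.

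Thbs2 and Lrrc15, which are outside the collagen list, had positive interactions as well. Thbs2 (chromosome 17, 14665500 to 14694235), the gene of thrombospondin 2, a matrix protein that restrains vessel growth, lay at 70.0, 82.6 and 90.8 CPM in wild type and at 22.1, 27.1 and 36.5 CPM in mutants at day 5. By 1 month it was at 55.3, 65.5 and 70.2 CPM in wild type and 124, 153 and 258 CPM in mutants. The groups were apart at both times in opposite order, from -1.56 ± 0.16 to 1.42 ± 0.16, with an interaction of 2.99 ± 0.23 (edgeR adjusted p = 1.27e-08). Lrrc15 (chromosome 16, 30269302 to 30283256), a membrane protein gene known from activated fibroblasts, lay at 3.46, 6.79 and 9.31 CPM in wild type and 0.745, 1.5 and 3.73 CPM in mutants at day 5. The 1 month levels were 3.00, 9.46 and 35.8 CPM in wild type and 68.5, 113 and 198 CPM in mutants. The 2 genotypes overlapped slightly at day 5 and were apart at 1 month, an interaction of 4.87 ± 0.65 (edgeR adjusted p = 3.43e-05). In the list of matrix-remodelling enzymes 2 of 20 members were positive and 2 negative, 14 of the 20 interactions were below 0 and the median was -0.71. Mmp2, a gelatinase gene of fibroblasts, reversed (-0.72 ± 0.19 to 0.81 ± 0.19) and Mmp14, whose product activates it, gained a higher level (-0.34 ± 0.16 to 0.74 ± 0.16). The leukocyte enzymes Mmp8 and Adam8 became smaller.

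Melanocyte genes had the highest share of calls of the lists described. Of 12 members 11 had a positive interaction and 0 a negative one, and 11 were also called without the 4 libraries low in Y-linked genes, with the GC covariate and without the 2 day 5 libraries low in S100a8. In 6 a lower level was lost (Dct, Pmel, Mlana, Oca2, Mc1r, Slc24a5) and in 5 the effect reversed (Tyr, Tyrp1, Kit, Slc45a2, Gpnmb), while Mitf, the lineage transcription factor, was not called. The list median went from -1.99 to 0.53. Both genotypes moved, since 7 of the 12 fell over time in wild type and 10 rose in mutants. Tyrp1 (chromosome 4, 80834123 to 80851719), an enzyme gene of melanin synthesis, lay at 16.4, 22.4 and 26.7 CPM in wild type and at 3.73, 4.82 and 6.35 CPM in mutants at day 5. After 1 month it stood at 4.00, 5.55 and 11.5 CPM in wild type and at 10.9, 14 and 19.2 CPM in mutants. The genotypes did not overlap at day 5 and touched at 1 month in the opposite order, with an interaction of 3.24 ± 0.31 (edgeR adjusted p = 3.03e-07). Dct (chromosome 14, 118012790 to 118052244), the gene of dopachrome tautomerase of the same pathway, lay at 22.9, 27.4 and 30.0 CPM and at 5.04, 7.57 and 9.97 CPM at day 5. Levels at 1 month were 11.3, 15.5 and 27.7 CPM in wild type and 19.4, 22 and 33.6 CPM in mutants. Here the groups overlapped at 1 month and the effect counted as lost (-1.83 ± 0.21 to 0.46 ± 0.20).

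The promoters of pigment enzyme genes with positive interactions are shown. The 200 bases before the RefSeq starts of Tyr, Tyrp1 and Dct are given 5′ to 3′ on the gene's strand from GRCm38.p6, with capitals marking CATGTG, an E-box form known to bind MITF. They are chr7:87493513-87493712 (minus), chr4:80834013-80834212 (plus) and chr14:118052247-118052446 (minus).
Tyr: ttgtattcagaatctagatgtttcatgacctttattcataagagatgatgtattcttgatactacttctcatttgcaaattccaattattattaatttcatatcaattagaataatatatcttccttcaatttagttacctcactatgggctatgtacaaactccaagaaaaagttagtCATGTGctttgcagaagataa
Tyrp1: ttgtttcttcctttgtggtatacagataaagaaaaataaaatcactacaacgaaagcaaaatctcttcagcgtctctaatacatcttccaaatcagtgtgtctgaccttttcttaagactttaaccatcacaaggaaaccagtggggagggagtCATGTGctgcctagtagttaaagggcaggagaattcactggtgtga
Dct: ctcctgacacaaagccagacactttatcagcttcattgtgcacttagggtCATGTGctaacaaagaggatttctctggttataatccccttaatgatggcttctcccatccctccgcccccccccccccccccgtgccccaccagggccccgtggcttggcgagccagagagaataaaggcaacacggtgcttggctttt
CATGTG was searched on both strands in the 250 bases before the start. It was found in 6 of 9 melanocyte genes with a RefSeq promoter (Tyr, Tyrp1, Dct, Oca2, Mc1r and Slc24a5), which are 6 of the 8 called, against 9.64% of 12299 genes. It begins 21, 46 and 150 bases before the RefSeq start in Tyr, Tyrp1 and Dct. The gene start of Tyrp1 given above, from GENCODE M21, lies within the window shown and before the match. The Tyrp1 match is therefore upstream of the RefSeq start only. A match does not show binding, and any part of the motif in the change over time was not tested.

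Glucocorticoid targets turned the other way. Of 14 members 9 had a negative interaction and 0 a positive one, and the median effect went from -0.05 to -0.79. In 2 a higher level was lost (Mt1, Mt2), in 2 the effect reversed (Fkbp5, Dusp1) and in 5 a lower level was gained (Tsc22d3, Per1, Zbtb16, Errfi1, Pdk4). In wild-type ears 10 of the 14 rose over time and 0 fell, and in mutants 5 fell and 0 rose. Fkbp5 (chromosome 17, 28399094 to 28517527), a co-chaperone of the glucocorticoid receptor, lay at 43.0, 53.7 and 62.3 CPM in wild type and 77.8, 88.3 and 109 CPM in mutants at day 5. Libraries of 1 month held 99.4, 134 and 151 CPM in wild type and 53.6, 62.0 and 89.4 CPM in mutants. The genotypes were apart at both times in opposite order, from 0.78 ± 0.13 to -0.98 ± 0.13 (interaction -1.76 ± 0.19, edgeR adjusted p = 2.44e-06). Pdk4 (chromosome 6, 5483351 to 5496309), a kinase gene that turns cells from glucose to fat oxidation, lay at 9.62, 18.9 and 25.2 CPM in wild type and 8.24, 24.8 and 49.5 CPM in mutants at day 5. The later libraries held 33.7, 89.6 and 124 CPM in wild type and 3.06, 13 and 18.1 CPM in mutants, with the groups apart (interaction -3.57 ± 0.58, edgeR adjusted p = 0.000236). Mt2 (chromosome 8, 94172664 to 94173568), a metallothionein gene that also answers zinc and cytokines, lay at 70.3, 73.5 and 80.9 CPM and 243, 306 and 411 CPM at day 5, and at 78.3, 120 and 150 CPM and 79.1, 119 and 182 CPM at 1 month. Its groups went from apart to fully overlapping, with an interaction of -1.97 ± 0.26 (edgeR adjusted p = 2.61e-05).

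**Figure D5:**
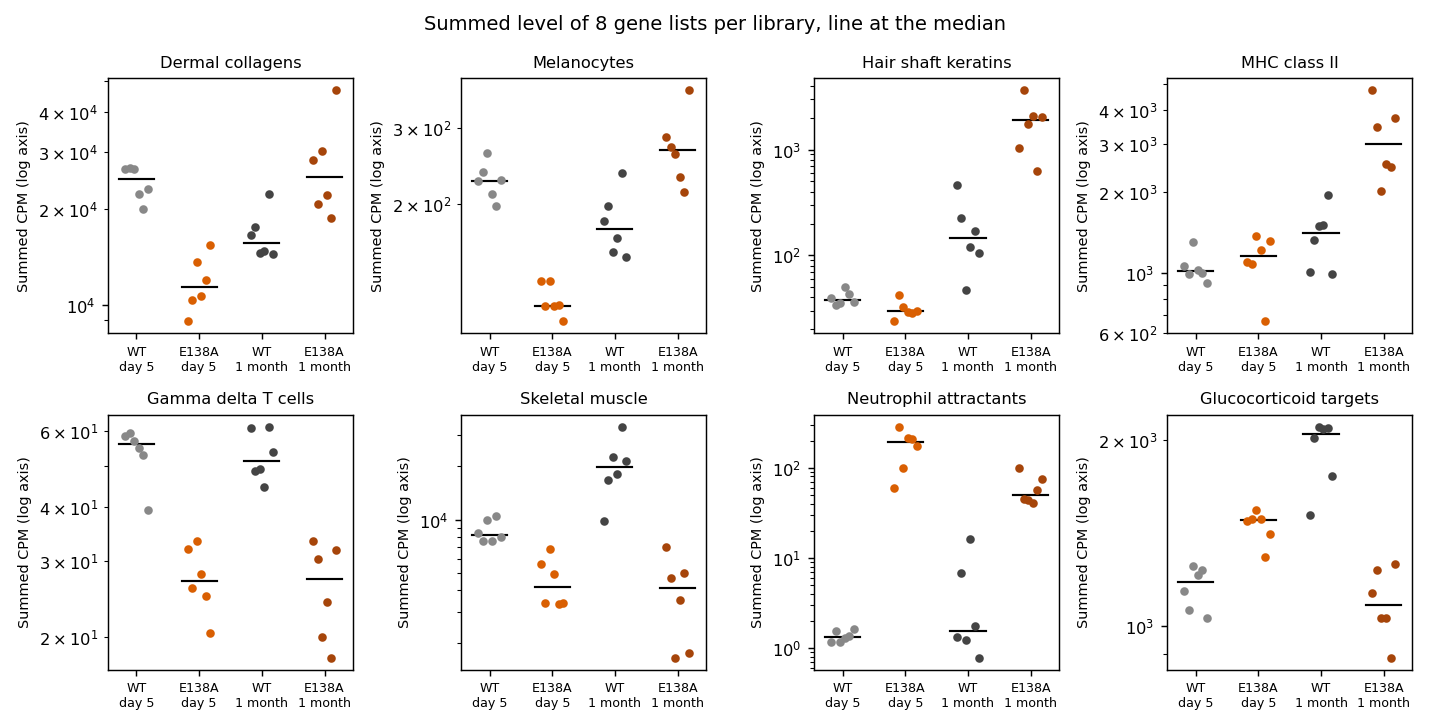
Each panel sums the CPM of the tested members of 1 list in every library on a log axis, 6 libraries in each group, with a line at the group median. The collagen and melanocyte sums of mutants go from below to above wild type, hair shaft keratins and MHC class II rise in mutants at 1 month, γδ T-cell and muscle sums stay below wild type, neutrophil attractants stay above it, and glucocorticoid targets go from above to below.

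Few genes went from higher to lower in mutants, 28 in all, and among them were secreted proteins. Retnla (chromosome 16, 48842551 to 48844461), a resistin-like gene of alternatively activated macrophages, lay at 3.70, 4.59 and 7.58 CPM in wild type and at 5.96, 11.6 and 21.9 CPM in mutants at day 5. In 1 month ears it lay at 10.7, 16 and 31.5 CPM in wild type and 0.486, 1.65 and 2.29 CPM in mutants. The groups overlapped at day 5 and were apart at 1 month (1.31 ± 0.34 to -3.53 ± 0.37, interaction -4.84 ± 0.50, edgeR adjusted p = 1.37e-06). Pyy (chromosome 11, 102106676 to 102107832), a peptide hormone gene, lay at 0.432, 0.735 and 1.44 CPM and at 0.573, 1.59 and 5.01 CPM at day 5. At 1 month wild-type ears held 3.00, 5.09 and 23.5 CPM and mutant ears 0, 0.157 and 0.302 CPM. The day 5 effect of Pyy was 1.51 ± 0.59 with overlapping groups, and its interaction was -7.41 ± 0.92 (edgeR adjusted p = 1.43e-05). Fcgbp (chromosome 7, 28071236 to 28120862), a mucin-like secreted protein gene, lay at 879, 1110 and 1580 CPM and at 1520, 2210 and 2860 CPM at day 5, then at 820, 1230 and 1700 CPM and at 416, 507 and 744 CPM at 1 month. The groups overlapped at day 5 and were apart at 1 month. Its mutant level fell by 2.01 ± 0.20 and its wild-type change of 0.20 ± 0.19 was not called. Arl4d, a small GTPase gene, and Cldn2, a pore-forming claudin gene, reversed with interactions of -1.39 ± 0.19 and -2.16 ± 0.31.

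Epidermal keratin genes included 2 of the 3 largest negative interactions of the genes named here, with Pyy between them. Krt24 (chromosome 11, 99279959 to 99285262), a type I keratin of differentiating epidermis, lay at 324, 377 and 424 CPM in wild type and at 48.4, 90.2 and 221 CPM in mutants at day 5. By 1 month it lay at 169, 196 and 255 CPM in wild type and at 0.156, 0.211 and 0.302 CPM in mutants. Mutant and wild-type ranges were separate at both times, and the effect grew from -1.66 ± 0.25 to -9.80 ± 0.38, an interaction of -8.14 ± 0.44 (edgeR adjusted p = 2.43e-11). Krt2 (chromosome 15, 101810689 to 101818169), a type II keratin of the upper epidermis, was among the abundant transcripts of wild-type ears, with 10600, 12500 and 15900 CPM at day 5 and 5570, 7900 and 10700 CPM at 1 month. Mutant ears held 7830, 10300 and 12900 CPM at day 5 and 29.8, 71.8 and 120 CPM at 1 month. Krt2 overlapped between genotypes at day 5 (-0.37 ± 0.26, not called) and was apart at 1 month (-6.91 ± 0.33), an interaction of -6.54 ± 0.40 (edgeR adjusted p = 1.51e-10). In the list of suprabasal keratins and partners 3 of 12 members were negative (Krt2, Krt24, Krt77) and 1 was positive (Krt79). Krt1 and Krt10 were not called. Krt77 lost its call in 20 of the 24 fits that left out 1 library, and Krt79 in 13.

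Filaggrin family genes parted from each other. Flg (chromosome 3, 93273523 to 93293686), whose product bundles keratin and yields the skin's moisturising acids, lay at 271, 461 and 678 CPM in wild type and at 23.4, 35.0 and 114 CPM in mutants at day 5. At 1 month it lay at 77.7, 279 and 836 CPM in wild type and at 379, 792 and 1100 CPM in mutants. The genotypes were apart at day 5 and overlapped at 1 month, and the lower level was lost (-3.15 ± 0.53 to 1.00 ± 0.50, interaction 4.15 ± 0.72, edgeR adjusted p = 0.000530). Flg2 (chromosome 3, 93197278 to 93221391), the adjacent filaggrin-2 gene, lay at 432, 566 and 669 CPM in wild type and 15.5, 21.7 and 91.3 CPM in mutants at day 5. After 1 month it stood at 212, 482 and 707 CPM and at 0.0973, 3.61 and 8.59 CPM. Its groups were apart at both times and the effect grew from -3.81 ± 0.58 to -6.82 ± 0.68 (interaction -3.01 ± 0.76, edgeR adjusted p = 0.0138). The call of Flg2 was lost without the 2 day 5 mutant libraries low in S100a8.

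The list of granular and cornified layer genes, which holds both filaggrin genes, was called in 4 members. Of 29 tested 3 were positive (Flg, Casp14, Tgm3) and 1 negative (Flg2), but without the 4 libraries low in Y-linked genes 13 were negative. Casp14, a caspase gene of cornification that processes filaggrin, gained a higher level (0.66 ± 0.28 to 2.54 ± 0.30), and Tgm3, a transglutaminase gene that cross-links the envelope, became larger (1.12 ± 0.19 to 2.07 ± 0.20). Of 21 Sprr and Lce3 envelope genes 1 was called, Sprr2a1, which overlaps its copy Sprr2a2 and lost its call in 8 of the 24 fits without 1 library. Of 18 wound keratinocyte genes 2 were called, Krt6b (smaller) and Fabp5. Fabp5, a fatty acid carrier gene of proliferating epidermis, went from 1.59 ± 0.25 to 3.15 ± 0.26. Of 28 cell cycle genes 4 were positive (Plk1, Bub1b, Cdc20, Foxm1), and 0 without the 2 day 5 libraries low in S100a8. Retinoid genes were positive in 6 of 18 members (background 4.68%) and negative in 0. As a list they were split, with 9 interactions above 0, 9 below and a median of 0.10. Without the 4 libraries low in Y-linked genes 4 were positive and 2 negative, and with the GC covariate 8 positive. Without the 2 day 5 libraries low in S100a8 3 were positive. The retinol acyltransferase gene Lrat (interaction 2.97 ± 0.46) and the carrier gene Crabp2 (1.56 ± 0.29) gained higher levels in mutants, as did Stra6 and Crabp1. Stra6 was not called in either of the fits that left out these libraries.

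Of the hair shaft genes 10 of 30 gained a higher level in mutants. Of 30 keratins and partners of the hair shaft and its sheath 12 had a positive interaction and 0 a negative one, and all 30 interactions were above 0, with a median of 3.20 (3.06 with genes of no count in a group set at their bound). The median effect was -0.07 at day 5 and 3.12 at 1 month. In 10 the higher level was gained (Krt25, Krt27, Krt28, Krt31, Krt35, Krt71, Krt73, Krt75, Tchh, Krtap3-3). Wild-type ears rose over time as well, in 26 of the 30 genes, and mutant ears in 30. The summed level was 33.9, 38.0 and 50.5 CPM in wild type and 23.7, 29.6 and 41.9 CPM in mutants at day 5. At 1 month it was 46.7, 146 and 459 CPM in wild type and 623, 1900 and 3660 CPM in mutants. The 2 genotypes overlapped at day 5 and were apart at 1 month. Hair keratins are activated during hair growth, and the sources used here do not name the hair cycle stage of the ears.

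Krt71 (chromosome 15, 101733949 to 101743109), a keratin of the inner root sheath, lay at 0.0616, 1.07 and 3.03 CPM in wild type and 0, 0.784 and 1.78 CPM in mutants at day 5. Levels at 1 month were 3.79, 26.1 and 88.0 CPM in wild type and 116, 354 and 954 CPM in mutants, with the groups apart (interaction 4.16 ± 1.07, edgeR adjusted p = 0.0145). S100a3 (chromosome 3, 90560578 to 90602702), a calcium-binding protein gene of the hair cuticle, reversed. It lay at 3.58, 4.90 and 7.88 CPM and at 0.716, 0.947 and 1.32 CPM at day 5, then at 6.84, 7.95 and 13.8 CPM and at 24, 41.7 and 84.0 CPM at 1 month. Mutant ears were below every wild-type ear at day 5 and above every one at 1 month (day 5 effect -2.41 ± 0.31, interaction 4.91 ± 0.41, edgeR adjusted p = 4.60e-08). Krtap3-2 (chromosome 11, 99555823 to 99556853), a keratin-associated protein gene, did not cross. It lay at 8.69, 9.92 and 12 CPM and at 0, 0.0573 and 0.307 CPM at day 5, and at 7.48, 8.80 and 11.4 CPM and 0.877, 2.93 and 8.86 CPM at 1 month. Its lower level in mutants became smaller, from -6.66 ± 0.58 to -1.39 ± 0.39 (interaction 5.27 ± 0.71, edgeR adjusted p = 3.86e-05), and mutant replicate 2 of 1 month alone lay within the wild-type range.

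Regulators of hair follicles were positive in 10 of 25 members and negative in 1. In 4 a lower level was lost (Lhx2, Gli1, Msx2, Dlx3), in 3 it reversed (Lgr5, Gli2, Lef1) and in 3 a higher level was gained (Foxn1, Hoxc13, Foxe1). Hoxc13, a transcription factor gene of the hair shaft, went from -0.59 ± 0.26 to 1.55 ± 0.26. Lef1, the gene of a Wnt effector in the hair matrix, went from -0.64 ± 0.18 to 0.81 ± 0.18, and Gli2, of Hedgehog signalling, from -1.04 ± 0.16 to 0.39 ± 0.15. Dlx3, a homeobox gene of follicles and epidermis, went from -1.10 ± 0.19 to 0.40 ± 0.19. Pitx1, a homeobox gene of hindlimb development, gained a level of 6.09 CPM on average in mutants at 1 month against 0.128 to 0.193 CPM in the other 3 groups (interaction 5.10 ± 0.93, edgeR adjusted p = 0.000841). Of the keratin clusters as a whole, 9 of 41 tested genes on chromosome 11 (99232761 to 100261029) were positive and 3 negative, and 6 of 25 on chromosome 15 (101347444 to 102032027) were positive and 3 negative.

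MHC class II and class I genes did not move together. Of 11 MHC class II genes 6 had a positive interaction and 0 a negative one, 5 of them gained (H2-Aa, H2-Ab1, H2-Eb1, H2-Ob, Cd74) and Ciita, the gene of their transcriptional activator, larger. In mutants 11 of the 11 rose over time, and in wild type 2. Without the 4 libraries low in Y-linked genes 3 of the 11 were called. Of 15 MHC class I genes 0 were positive and 1 was negative (H2-Q6, a lost effect), 14 of the 15 interactions were below 0 and the median was -0.49. In the fit without the 4 libraries 9 of the 15 were called negative, and with the GC covariate 6. H2-Q6 was named after its values were seen, and class I copies are alike enough to share reads. H2-Aa (chromosome 17, 34282744 to 34287823), the α chain gene of I-A, lay at 185, 199 and 261 CPM in wild type and 125, 219 and 249 CPM in mutants at day 5. Libraries of 1 month held 207, 302 and 383 CPM in wild type and 442, 632 and 1020 CPM in mutants. The genotypes overlapped at day 5 and were apart at 1 month (interaction 1.22 ± 0.27, edgeR adjusted p = 0.00483). Among dendritic cell genes 3 of 17 were positive. Flt3 (chromosome 5, 147330741 to 147400489), a growth factor receptor gene of dendritic cells and their precursors, lay at 2.81, 4.24 and 5.14 CPM and 2.29, 2.95 and 4.81 CPM at day 5, then at 3.37, 3.66 and 5.05 CPM and 12.6, 14.8 and 21.9 CPM at 1 month. Its mutants were above every wild-type library at 1 month (interaction 2.40 ± 0.27, edgeR adjusted p = 3.42e-06). Siglech, of plasmacytoid dendritic cells, reversed, and Fscn1, of mature dendritic cells, became larger but was not called without the 4 libraries. The Langerhans cell gene Cd207 was not called.

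Lymphocyte genes moved in opposite directions by type. Of 19 αβ T-cell genes 4 were positive (Cd4, Trac, Trbc2, Cd5) and 1 was negative (Cd3g), with 7 positive and 3 negative without the 4 libraries low in Y-linked genes. Cd4 (chromosome 6, 124864692 to 124888221), a coreceptor gene of helper T cells also found on some myeloid cells, lay at 2.12, 3.39 and 4.52 CPM and 2.66, 3.07 and 6.74 CPM at day 5. The later libraries held 2.44, 3.32 and 4.11 CPM in wild type and 11.9, 14.5 and 19.1 CPM in mutants, apart (interaction 2.04 ± 0.31, edgeR adjusted p = 0.000132). Of 7 B and plasma cell genes tested 3 were positive. Ighm (chromosome 12, 113418558 to 113422730), the constant region gene of IgM, lay at 12.6, 14.8 and 16.9 CPM and 4.81, 5.85 and 9.08 CPM at day 5, then at 12.7, 17.5 and 26.7 CPM and 23.8, 29.6 and 37.5 CPM at 1 month. Its mutants went from below to mostly above wild type (-1.26 ± 0.18 to 0.66 ± 0.17, interaction 1.92 ± 0.25, edgeR adjusted p = 2.34e-05). Cd79b, a chain of the B-cell receptor, and Igha, of IgA, gained higher levels at low counts, and Igha lost its call in 10 of the 24 fits without 1 library. Of 12 mast cell genes 4 were positive (Kit, Tpsb2, Tpsab1, Gata2), and 11 of the 12 interactions were above 0. Tpsb2 lost its call in 20 of the 24 fits without 1 library.

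Several genes of γδ T cells, which in mouse epidermis include the resident dendritic epidermal T cells, went further down. Of 10 tested 5 were negative (Trdc, Trdv4, Tcrg-C1, Tcrg-C4, Tcrg-V5) and 1 was positive, the transcription factor gene Sox13, which other skin cells also express. The median effect was -1.09 at day 5 and -3.01 at 1 month, and the median interaction -1.59. Without the 4 libraries low in Y-linked genes that median was -1.62, and with the GC covariate -1.63. Without the 2 day 5 mutant libraries low in S100a8 it was -0.41, with 4 of 11 tested members negative and 1 positive. Trdc (chromosome 14, 54142851 to 54148868), the constant region gene of the δ chain, lay at 12.2, 22.6 and 25.2 CPM in wild type and 3.85, 7.72 and 10.7 CPM in mutants at day 5. In 1 month ears it lay at 17.0, 21.2 and 24.6 CPM in wild type and at 0.877, 2.08 and 2.24 CPM in mutants. The genotypes overlapped at neither time and mutant libraries of the 2 times were apart too (interaction -2.10 ± 0.32, edgeR adjusted p = 0.000134). Tcrg-V5 went from -1.42 ± 0.30 to -5.31 ± 0.43, with a mean of 0.037 CPM in mutants at 1 month. Of 9 cytotoxic lymphocyte genes 2 were negative, Prf1 and Nkg7. Prf1 (chromosome 10, 61297833 to 61304680), the perforin gene, lay at 3.87, 4.96 and 6.04 CPM and 1.86, 3.01 and 3.62 CPM at day 5, then at 5.91, 6.30 and 9.16 CPM and 0.231, 0.570 and 0.778 CPM at 1 month. Its groups did not overlap at either time (interaction -2.85 ± 0.30, edgeR adjusted p = 1.89e-06). The keratinocyte Skint genes, known for supporting these epidermal T cells, had 0 of 11 called, though 4 were negative with the GC covariate and 1 positive without the 4 libraries.

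Muscle genes parted, and it was mostly in wild-type ears that they changed. Of 22 members 7 had a negative interaction and 0 a positive one, and all 22 interactions were below 0, with a median of -1.48. In wild type 19 of the 22 rose over time, and in mutants 0 rose and 1 fell. Actn3 (chromosome 19, 4861216 to 4877909), an α-actinin gene of fast fibres, lay at 62.7, 79.5 and 99.3 CPM and 22, 34.3 and 57.9 CPM at day 5. By 1 month it lay at 80.1, 239 and 699 CPM in wild type and at 2.13, 12.5 and 37.5 CPM in mutants. Mutant and wild-type ranges were separate at both times, although the day 5 effect of -1.08 ± 0.49 was not called, and the interaction was -3.35 ± 0.71 (edgeR adjusted p = 0.00348). Without the 4 libraries low in Y-linked genes 19 of the 22 were called, with the GC covariate 15, and without the 2 day 5 libraries low in S100a8 3. Of 17 cartilage genes 3 lost a lower level (Col2a1, Col11a1, Matn4) and 2 were negative (Chad, Cytl1). Col2a1, the main cartilage collagen, went from -2.01 ± 0.33 to -0.45 ± 0.32, a call lost in 9 of the 24 fits without 1 library. Of 20 adipocyte genes 2 were negative, the lipid droplet genes Plin4 (-0.59 ± 0.18 to -1.78 ± 0.18) and Pnpla2 (-0.23 ± 0.18 to -1.22 ± 0.18). That share of 10% is near the 8.77% called over all genes tested. Without the 4 libraries low in Y-linked genes 7 were negative. Without the 2 day 5 libraries low in S100a8 it was 1, and Pnpla2 was not called.

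Clock genes moved both ways. Of 19 members 4 were positive and 6 negative. The sources used here do not name the time of day of sampling. Npas2 (chromosome 1, 39193731 to 39363236), a partner of BMAL1 in the positive arm, lay at 11.9, 15.7 and 18 CPM and 9.72, 12.6 and 16.3 CPM at day 5. The 1 month levels were 10.8, 13.9 and 15.6 CPM in wild type and 1.19, 1.84 and 2.24 CPM in mutants, apart (interaction -2.71 ± 0.22, edgeR adjusted p = 3.96e-08). Arntl, the gene of BMAL1, gained a lower level as well (-0.17 ± 0.13 to -1.36 ± 0.14). Dbp (chromosome 7, 45705088 to 45710203), an output gene that BMAL1 activates, lay at 80.8, 89.4 and 123 CPM and 10.1, 20.3 and 24.3 CPM at day 5, and at 54.3, 86.0 and 91.9 CPM and 36.8, 54.6 and 75.6 CPM at 1 month. Its lower level in mutants became smaller (-2.30 ± 0.20 to -0.56 ± 0.19, interaction 1.74 ± 0.27, edgeR adjusted p = 0.000139). Per3, a gene of the negative arm, lost a lower level (-1.20 ± 0.18 to -0.15 ± 0.18). The E-box CACGTG, a palindrome that reads alike on both strands, was in the 250 bases before the start of 5 of 16 clock genes (Per1, Cry1, Tef, Ciart and Bhlhe41), of which 2 were called, against 9.24% of 12299 genes.

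Several of the clearest lost and gained genes belonged to none of these lists. Car6 (chromosome 4, 150187015 to 150201332), a secreted carbonic anhydrase gene, lay at 6.01, 6.58 and 8.64 CPM in wild type and at 0.120, 0.309 and 0.665 CPM in mutants at day 5. At 1 month it lay at 6.95, 12.1 and 14.9 CPM and 2.31, 20.9 and 31.4 CPM. A level well below wild type in every mutant library became an overlapping one (interaction 4.99 ± 0.61, edgeR adjusted p = 1.21e-05). Arhgap24, a GTPase regulator gene, went from -1.05 ± 0.09 to 0.01 ± 0.09, and Plxdc1, an endothelial surface protein gene, from -1.48 ± 0.18 to 0.36 ± 0.18. Krt222, a keratin-like gene, lost a higher level (4.83 ± 0.33 to 0.69 ± 0.33). Rgs4 (chromosome 1, 169741477 to 169747642), which dampens G protein signalling, had the smallest interaction p of the genes gained as higher. It lay at 3.65, 4.25 and 5.62 CPM and 2.97, 3.31 and 4.17 CPM at day 5, then at 3.79, 4.75 and 6.29 CPM and 21.3, 28.4 and 35.8 CPM at 1 month. Its groups overlapped at day 5 and were apart at 1 month (interaction 2.85 ± 0.22, edgeR adjusted p = 1.67e-08). Ephb2 (-0.27 ± 0.19 to 2.02 ± 0.19), a receptor gene of contact guidance, Sox7 (0.43 ± 0.19 to 2.56 ± 0.20), an endothelial transcription factor gene, and Gpr37 (-0.52 ± 0.28 to 2.57 ± 0.28) were gained likewise. Gained as lower were Slc7a6, an amino acid transporter gene (0.25 ± 0.13 to -1.47 ± 0.13), Adh6a, an alcohol dehydrogenase gene (-0.63 ± 0.29 to -4.16 ± 0.34), and Trim71, an RNA-binding ubiquitin ligase gene (0.57 ± 0.27 to -2.61 ± 0.30). Lzts1 and Hunk reversed from lower to higher with both pairs of groups apart, with interactions of 2.25 ± 0.20 and 1.91 ± 0.20. Fgf23, the gene of a phosphate-regulating hormone, shrank from 9.55 ± 0.68 to 5.04 ± 0.64, a call lost in 10 of the 24 fits without 1 library. Tmprss11b, a membrane protease gene, grew from 2.09 ± 0.73 to 6.33 ± 0.59.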

How the data were processed

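The deposited values were RSEM expected counts per gene from the authors, in 24 columns, one per sample, per the file headers. The submitters' processing notes name RSEM 1.3.0, STAR 2.5.2, DESeq2 1.14.1 and GRCm38. The annotation release and whether counting used strand are not given in the sources used here. Per the labels' protocols, polyA libraries were read single-end at 75 bases or more. No column of another sample was used (0 present).

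Expected counts were rounded (6.71% of values were not whole). Symbols and coordinates came from GENCODE M21 on GRCm38 (51633 of 51912 identifiers matched). Genes were filtered with filterByExpr by group, scaled by TMM and fitted with edgeR 4.0.16 in R 4.3.3 (robust quasi-likelihood, 1 coefficient per group, all 24 libraries, two-sided). Calls were made at a Benjamini-Hochberg adjusted p below 0.05 over 17287 genes. SE is the size of the log2 fold change over the square root of F. Alternatives used limma 3.58.1 and DESeq2 1.42.0 among others.

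The genes named with values are Card14, the 10 largest interactions each way (mean of at least 5 CPM in a group, at least 4 counts in every group), the 6 smallest p per direction of lost, gained and reversed genes, and up to 4 members per described list by smallest p. Other genes are named as list members with its count. A few list members are counted but not reported by name here. The members, lists and rules were chosen with earlier results of these data known. Of the 160 genes so named 20 overlap another tested gene, 5 on the same strand. No samples were near-duplicates of each other: the smallest chi-square per degree of freedom was 4.86. The largest within a group was 18.8 in wild type and 104 in mutants at day 5, and 242 and 274 at 1 month. The groups were thus unequal in spread although the fit shared 1 estimate. Day 5 effects were judged in part by the 1 month spread, which bears on the lost and gained classes. In counts simulated for the interaction over 17105 genes, the test called 19 of 50 genes given a 2-fold change, 36 of 50 given 4-fold, 48 of 50 given 8-fold and 7 of 16905 left unchanged. The simulated counts had equal spread in all groups and no variation shared by the genes of a library, unlike the real ones. They therefore do not give the rate of false calls in these data.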

Additional observations from a re-analysis of the deposited data

Results flagged for a closer look

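The genotype effect differed between the times, by the interaction test itself, with a positive interaction in 809 genes and a negative one in 707, and it reversed in 185.

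Single libraries stood far from the rest of their group in 10 of 168 groups tested (42 genes in 4 groups each), judged by the gap to the nearest library as a share of the group's range. Chance flags about 1 in 20 groups, 8.4 here. In mutants at 1 month, replicate 2 was highest in Card14 (gap 0.703 of the range, 25.3 CPM against 14.5 in the next library) and in Krtap3-2 (0.641, 8.86 against 3.74 CPM). Replicate 6 of the same group was highest in Col1a2 (0.639, 9200 against 5070 CPM) and in Dct (0.761, 33.6 against 22.8 CPM). These 2 libraries are among the 4 low in Y-linked genes. In wild type at 1 month, replicate 5 was highest in Retnla (0.707, 31.5 against 16.8 CPM) and in Prf1 (0.680, 9.16 against 6.95 CPM). Replicate 1 of that group was highest in Col12a1 (0.669, 99.9 against 75.8 CPM), and replicate 2, also low in Y-linked genes, in S100a3 (0.674, 13.8 against 9.11 CPM). In wild type at day 5, replicate 3 was highest in H2-Aa (0.711, 261 against 207 CPM) and replicate 6 lowest in Trdc (0.646, 12.2 against 20.6 CPM).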

How the results depend on the processing

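No named gene changed sign under any of the alternatives, and the cause of the changes in counts below was not tested. In the order positive, negative, lost, gained, reversed, smaller, larger and neither, the counts were 809, 707, 345, 565, 185, 106, 302 and 13. They were 1697, 2933, 1217, 1836, 368, 218, 870 and 121 without the 4 libraries low in Y-linked genes. With limma voom they were 4037, 4180, 2288, 2358, 955, 709, 1771 and 136, and at an adjusted p below 0.01 390, 309, 171, 318, 93, 41, 70 and 6. With the GC covariate positive, negative, lost, gained, reversed, smaller and larger counts were 1441, 1386, 634, 918, 320, 249 and 695. Without the 2 day 5 mutant libraries low in S100a8, an alternative chosen after seeing the data, 324 genes were gained, 228 smaller, 165 larger and 7 neither. A minimum interaction of 1 log2 unit left 522 positive, 214 lost and 3 neither, and no filter left 196 larger. The neither class held 8 genes with RLE factors, 4 with total counts, 7 among protein-coding genes and 23 with DESeq2.

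Leaving out 1 library gave 637 to 891 positive, 524 to 853 negative, 267 to 392 lost, 405 to 652 gained, 147 to 220 reversed, 76 to 147 smaller, 202 to 414 larger and 3 to 21 neither. Replicate numbers did not pair the samples: deviations of same-numbered samples correlated at -0.8 to 0.468 (median -0.032, 4 of 36 above 0.1). Those of differently numbered samples correlated at -0.73 to 0.819 (median 0.014, 47 of 180 above 0.1). The highest was between wild-type replicate 2 and mutant replicate 6 of 1 month. Libraries of 1 month thus shared variation across genotypes that the replicate numbers do not mark. With the replicate number as a block 463 genes were negative, 68 smaller, 191 larger and 3 neither, and 1059 of the 1516 genes were called with the same sign. Calls that 17 or more of 37 settings lost were those of Tpsb2 (28), Cd163 (23), Krt77 (23), Il1b (21), Ly6c2 (21), S100b (19), Plk1 (18), Krt6b (17) and Krt79 (17). Small changes were seldom called: in simulated counts 4 of 50 genes changed 1.5-fold were.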
